A study of Mus musculus with 7 samples.

Results

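Expression of 7 nuclear genes that maintain mitochondrial DNA and handle mitochondrial RNA (Tfam, Tfb2m, Polrmt, Polg2, Ssbp1, Lrpprc and Slirp) was followed in mouse muscle satellite cells after death of the animal. The genes were taken by name, with earlier results of these data known. A gene was kept if a probe set of the array was annotated to that gene alone. This held for 7 of 7 of them, among 13287 genes named on the array. Satellite cells, the quiescent stem cells of skeletal muscle, were collected by FACS as GFP-positive cells. The mice were Tg:Pax7-nGFP, in which the Pax7 promoter drives a nuclear GFP, and RNA of the cells had been amplified and hybridised to 7 Mouse Gene 1.0 ST arrays. All groups carried this transgene, and the labels name no other treatment. The old group held 2 arrays from living mice of 24-26 months, the D2PM group 2 arrays from mice 2 days post mortem, and the D4PM group 3 arrays from mice 4 days post mortem. The array labels and the methods give the age of the old mice in months, whereas the design text of the series gives 24-26 weeks and its title speaks of young adult mice. Post-mortem mice were younger (8-12 weeks), so that age and death cannot be told apart in any comparison with old cells, and only D4PM against D2PM compares cells of like age. The paper shows the old and the post-mortem arrays as separate data sets, and whether they were processed together is not stated in the labels or methods. Any difference in processing could not be told apart from age and death either. No array of young living mice was used here. Whether arrays of the same group stem from different animals is not stated in the labels or methods. The limma p-values below therefore measure the spread between arrays, in part borrowed from other genes, and this spread may be technical.

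Mitochondrial DNA is transcribed and copied by a small set of proteins that are encoded in the nucleus. TFAM packs the DNA into nucleoids and bends the promoters, TFB2M opens them and POLRMT is the RNA polymerase; the transcripts it makes also prime replication. Replication is carried out by the DNA polymerase POLG with its accessory subunit POLG2, while SSBP1 covers the exposed single strand. LRPPRC and SLIRP form a complex that binds mitochondrial messenger RNAs and keeps them stable and polyadenylated. Genes of this kind are known targets of the ETS-family factor GABP, formerly NRF2, and of NRF1, both of which act with co-activators of the PGC-1 family.

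Promoter sequence of the 7 genes is shown first, since most of them share the letters CCGGAAG, a form of the ETS-family (GABP) motif. Only exact matches were searched for, so the gcggaag of Tfb2m, which differs in its first letter, is neither marked nor counted. Each line gives bases -52 to -23 relative to the annotated transcription start in RefSeq (GRCm38.p6), 5′ to 3′ on the strand of the gene, and capitals mark CCGGAAG or its reverse complement CTTCCGG.
Tfam (chr10:71238067-71238096, minus strand): gcggaCCGGAAGtccgggcttcccacagta
Tfb2m (chr1:179546299-179546328, minus strand): agcctgggggcggagcctaggcggaagcgg
Polrmt (chr10:79746604-79746633, minus strand): ctaagagcgCTTCCGGcagtcgcagaacta
Polg2 (chr11:106779560-106779589, minus strand): gctgctcagcagcgggtgacgctCTTCCGG
Ssbp1 (chr6:40471416-40471445, plus strand): gtgcgCCGGAAGcgagccgctggcggtcgg
Lrpprc (chr17:84790809-84790838, minus strand): cggagccgacctctagtgggctctaccaac
Slirp (chr12:87443844-87443873, plus strand): tggcCCGGAAGcagaactcgaaattccggc
The stretches of Tfam and Ssbp1 lie inside the span that RefSeq gives the gene, which begins upstream of the start used here, those of Tfb2m and Polrmt reach into it in part, and those of Polg2, Lrpprc and Slirp lie just upstream of the gene. Within the full window of 250 bases before to 50 bases after the start, on either strand, the ETS letters stood in 5 of 7 promoters, against 8.86% of all 32851 mouse promoters of the same length and 14.3% of the 12902 promoters of genes named on this array. Slirp held them at 3 places, starting at -146, -48 and -11. The NRF1 letters GCGCANGC were found in 2 of 7 promoters, those of Tfb2m (at 14 after the start) and Polrmt (at -133, -4 and 3, the last pair overlapping), against 9.95% of all promoters and 16.3% of those of named genes. The YY1 letters AAGATGGCG were found in 1 of 7, Slirp at -86, against 1.4% of all promoters and 2.29% of those of named genes. Lrpprc matched none of these letters in its window. Such a match is a description of sequence and does not show that a factor was bound. The genes with the ETS letters included ones higher and ones lower in post-mortem than in old cells, as given next.

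Cells from dead mice differed from old cells in both directions within this small group of genes. Messenger RNA of Lrpprc, Tfb2m and Polrmt was lower in post-mortem cells, that of Slirp and Polg2 was higher, and Tfam and Ssbp1 did not pass the test. Slirp was higher while Lrpprc, its partner in a complex, was lower, and Polg2 was higher while Polg, the catalytic subunit, was lower. Tfb2m and Polrmt, which act together at the promoter, were both lower. In the comparison of the mean of both post-mortem groups with old cells, 5 of the 7 genes passed an adjusted p of 0.05 in limma, 2 higher and 3 lower. Many genes did so on these arrays: of 9944 genes tested, 29% were called, 14.4% as higher and 14.7% as lower. Post-mortem and old arrays did not overlap for 5 of the 7 genes, a separation seen for 46% of all genes tested. Since the genes were chosen with earlier results known, these shares stand beside the counts as a description and not as a test. The median log2 difference was -0.16 over the 7 genes and 0.00 over all genes tested. Levels are given below as deposited log2 expression values, and the plot of expression on each array shows all of them. They are normalised between arrays, so a level is relative to the other transcripts on its array. The amount of RNA per cell was not measured here.

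**Figure D1:**
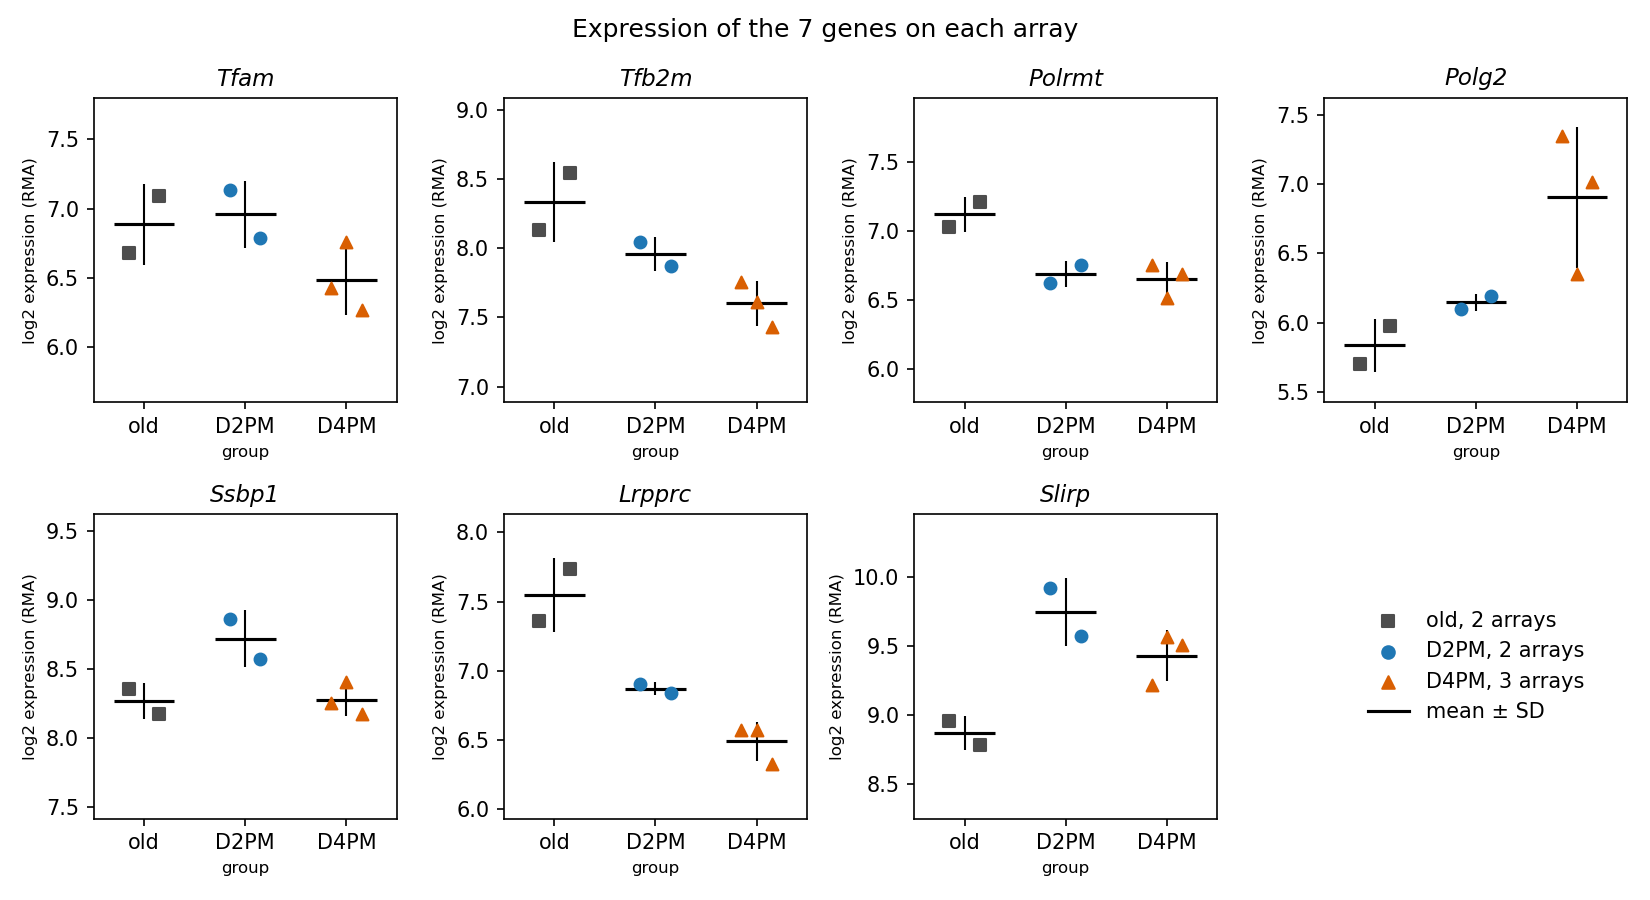
Log2 expression (RMA) of the 7 genes on each of the 7 arrays, by group (2 old, 2 D2PM, 3 D4PM), with a separate vertical axis of equal span for each gene. Symbols are single arrays, and horizontal and vertical lines are the group mean and SD. Old arrays lie above all 5 post-mortem arrays for Tfb2m, Polrmt and Lrpprc, and below all 5 for Polg2 and Slirp.

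Of the transcription genes, Tfb2m and Polrmt were lower in post-mortem cells and Tfam did not pass. Tfb2m, the promoter-opening factor, was at 8.13 and 8.54 on the old arrays, at 8.04 and 7.87 on D2PM and at 7.76, 7.62 and 7.43 on D4PM. Both old arrays were above all post-mortem arrays, and both D2PM arrays were above all D4PM arrays. The post-mortem mean was lower by 1.47-fold (log2 difference -0.55 ± 0.14 SE, adjusted p = 0.0142, limma). On D4PM alone Tfb2m was 1.66-fold below old (-0.73 ± 0.16 SE, adjusted p = 0.00555, limma), while on D2PM alone the difference of -0.38 did not pass (adjusted p = 0.152, limma). The gene has 2 probe sets on the array, whose values differed by at most 0.00789 on any array and therefore do not count as independent measurements.

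Polrmt, the mitochondrial RNA polymerase, was at 7.03 and 7.21 on the old arrays, at 6.62 and 6.76 on D2PM, and at 6.76, 6.51 and 6.69 on D4PM. Old arrays lay above every post-mortem array, whereas the D2PM values fell inside the range of D4PM. Its post-mortem level was 1.37-fold lower (-0.45 ± 0.12 SE, adjusted p = 0.0172, limma). The step from old was of similar size on both days, at -0.43 on D2PM (adjusted p = 0.0581, limma) and -0.47 on D4PM (adjusted p = 0.0217, limma).

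Tfam, the packaging and promoter-bending protein, was at 6.68 and 7.09 on the old arrays, at 7.13 and 6.79 on D2PM and at 6.43, 6.76 and 6.27 on D4PM. Old and D2PM arrays overlapped, and D4PM replicate 2 reached above the lower old array. Tfam did not pass the test in any comparison with old cells: the log2 difference was -0.16 ± 0.17 SE for all post-mortem arrays (adjusted p = 0.485, limma), 0.07 for D2PM (adjusted p = 0.824, limma) and -0.40 for D4PM (adjusted p = 0.124, limma). The interval of the pooled difference, -0.53 to 0.20, leaves room for a fall as large as that of Polrmt.

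Among the replication genes, Polg2 was higher in post-mortem than in old cells and Ssbp1 did not pass. Polg2, which encodes the accessory subunit that lets the polymerase stay on its template, was at 5.70 and 5.97 on the old arrays, at 6.10 and 6.19 on D2PM and at 7.35, 6.35 and 7.02 on D4PM. The 3 groups did not overlap, and D4PM replicate 2 lay much closer to the D2PM arrays than did the other D4PM arrays, which gave Polg2 the widest spread within D4PM of the 7 genes (SD 0.51). Relative to old cells Polg2 was 1.61-fold higher in post-mortem cells (0.69 ± 0.21 SE, adjusted p = 0.0323, limma) and 2.10-fold higher on D4PM (1.07 ± 0.23 SE, adjusted p = 0.00606, limma), with a D2PM difference of 0.31 that did not pass (adjusted p = 0.429, limma). The post-mortem call was the least stable of the 5, being kept under 9 of 17 other settings, and the D4PM call was kept under 13 of 17.

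Polg, which encodes the catalytic subunit of the same enzyme, went the other way. It was at 6.87 and 7.05 on the old arrays, at 6.18 and 6.42 on D2PM and at 6.42, 6.16 and 6.29 on D4PM. Every post-mortem array was below both old arrays, and the days overlapped. Polg was 1.59-fold lower in post-mortem cells (-0.67 ± 0.13 SE, adjusted p = 0.00308, limma), by -0.66 on D2PM and -0.67 on D4PM. On D2PM Polg passed the test on its own (adjusted p = 0.0124, limma), which Polg2 did not, and on D4PM both passed, in opposite directions.

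Ssbp1, the single-strand DNA-binding protein, was at 8.36 and 8.18 on the old arrays, at 8.86 and 8.57 on D2PM, and at 8.26, 8.41 and 8.17 on D4PM. Both D2PM arrays were above all others, and D4PM spread around the old arrays. No comparison with old cells passed: the differences were 0.23 ± 0.13 SE for all post-mortem arrays (adjusted p = 0.207, limma), 0.45 for D2PM (adjusted p = 0.0618, limma) and 0.01 for D4PM (adjusted p = 0.959, limma). A second, dimmer probe set of Ssbp1 disagreed, at 6.31 and 6.79 on old, 6.64 and 6.44 on D2PM and 6.09, 6.34 and 6.0 on D4PM, with a post-mortem difference of -0.21 where the brighter one gave 0.23. Both probe sets had D4PM below D2PM, by -0.44 for the brighter and -0.39 for the dimmer, but their relation to old cells is unsettled.

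Both genes of the RNA-stabilising complex were called on each day, and they had the lowest adjusted p-values of the 7 in the pooled and D2PM comparisons; on D4PM that held for Lrpprc alone. Lrpprc, the large RNA-binding partner, was at 7.36 and 7.74 on the old arrays, at 6.90 and 6.84 on D2PM and at 6.57, 6.57 and 6.33 on D4PM. The 3 groups followed each other downwards without overlap. The post-mortem level was 1.82-fold lower (-0.87 ± 0.14 SE, adjusted p = 0.000971, limma). On D2PM it was 1.60-fold below old (-0.68 ± 0.16 SE, adjusted p = 0.0145, limma) and on D4PM 2.08-fold (-1.06 ± 0.15 SE, adjusted p = 0.000544, limma). The post-mortem call was kept under 16 of 17 other settings, the D2PM call under 12 of 17 and the D4PM call under 15 of 17.

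Slirp, the small partner that LRPPRC protects from degradation as a protein, was at 8.96 and 8.78 on the old arrays, at 9.92 and 9.57 on D2PM, and at 9.22, 9.57 and 9.50 on D4PM. All post-mortem arrays were above both old arrays, and the D2PM arrays were at or above the top of D4PM, the lower D2PM value exceeding the highest D4PM value only in the third decimal. Slirp was 1.65-fold higher in post-mortem cells (0.72 ± 0.14 SE, adjusted p = 0.00363, limma). The difference from old was 1.84-fold on D2PM (0.88 ± 0.17 SE, adjusted p = 0.00562, limma) and 1.47-fold on D4PM (0.56 ± 0.15 SE, adjusted p = 0.0196, limma). These calls were kept under 14 of 17 other settings for all post-mortem arrays, 13 of 17 for D2PM and 11 of 17 for D4PM, the last being the lowest of the 5 called genes on D4PM.

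**Figure D2:**
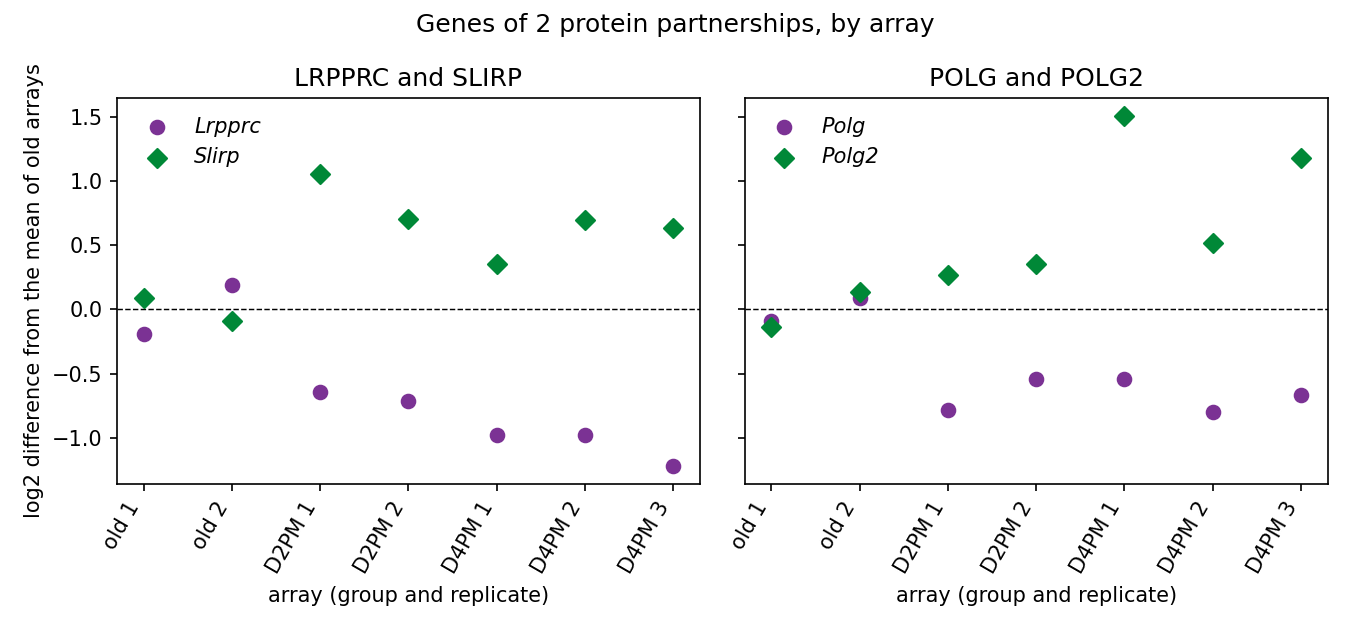
Log2 difference of each array from the mean of the old arrays (vertical axis) for Lrpprc and Slirp (left) and for Polg and Polg2 (right), on each of the 7 arrays (horizontal axis). On the 5 post-mortem arrays Lrpprc lies between -0.64 and -1.22 and Slirp between 0.35 and 1.05, while Polg lies between -0.54 and -0.80 and Polg2 between 0.26 and 1.51.

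Taken array by array, the difference between partners was present on each of the 5 post-mortem arrays. Relative to the old mean, Lrpprc was at -0.64 and -0.71 on D2PM and at -0.97, -0.98 and -1.22 on D4PM. Slirp was at 1.05 and 0.70 on D2PM and at 0.35, 0.70 and 0.63 on D4PM. No post-mortem array had both genes on the same side of the old mean, and the same held for Polg and Polg2. This follows from the lack of overlap with old arrays already given for each of these genes, and it adds no further support.

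By day, the comparisons with old cells gave 2 called genes of 7 on D2PM (Slirp higher, Lrpprc lower), where 19.4% of all genes tested were called, and 5 of 7 on D4PM (the same 5 as in the pooled comparison), where 27.9% were called. These comparisons share the old arrays, so the counts are not independent of each other. Old replicate 2 was the higher old array for Tfam, Tfb2m, Polrmt, Polg2 and Lrpprc, and without it 1 gene, Lrpprc, remained called in the pooled comparison, and 0 were called on D2PM and 1 on D4PM. The D2PM count was also 0 without D2PM replicate 1 and 1 without D2PM replicate 2.

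Between the days, which compares cells of like age, no gene of the 7 passed. With limma, 0 of 7 were called, where 0.191% of all genes tested were (19 genes), and the adjusted p-values of the 7 ran from 0.465 to 0.938. At an unadjusted p under 0.05 there were 5 of the 7, compared with 7.76% of all genes tested, and the arrays of the days did not overlap for 6 of the 7, compared with 25.3%. These counts too are a description, as the genes were chosen with earlier results known. Polg2 was higher on D4PM by 0.76 (95% interval 0.25 to 1.27). Lower on D4PM were Tfam by -0.48 (-0.87 to -0.08), Ssbp1 by -0.44 (-0.75 to -0.13), Lrpprc by -0.38 (-0.71 to -0.06) and Tfb2m by -0.36 (-0.70 to -0.01). The intervals of Slirp (-0.32, from -0.66 to 0.02) and Polrmt (-0.04, from -0.33 to 0.25) included 0. Thus 6 of the 7 values were below 0, with a median of -0.36, beside a median of -0.03 over all genes tested.

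**Figure D3:**
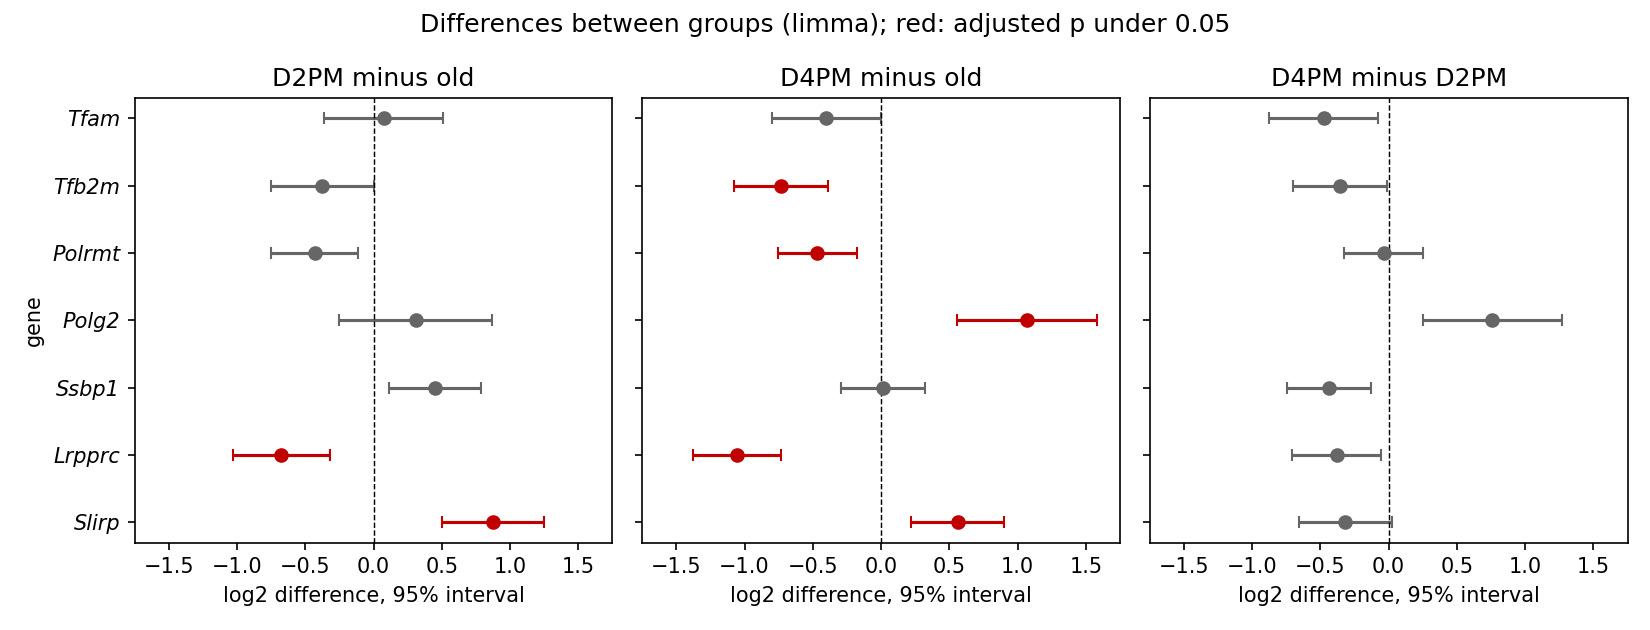
Log2 differences of the 7 genes with 95% intervals from the limma fit, for D2PM minus old, D4PM minus old and D4PM minus D2PM. Red marks an adjusted p under 0.05 over 9944 genes: Lrpprc and Slirp on D2PM, 5 genes on D4PM (Tfb2m, Polrmt, Polg2, Lrpprc and Slirp) and none between the days.

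The other nuclear genes of these processes were described by role, from 7 lists of 78 genes, of which 66 had a probe set and 63 were tested. In post-mortem against old cells 21 of the 63 were called (33.3%, beside 29% of all genes tested), 7 higher and 14 lower, with a median of -0.15. On D2PM 4 were higher and 10 lower, on D4PM 7 and 14, and between the days 0 were called. The share called was thus near that of all genes.

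In the list of replication and nucleoid genes, 3 of 11 were lower and 0 higher (27.3% called, beside 29% of all genes, median -0.20). These were Atad3a, a membrane ATPase of the nucleoid, which was 2.10-fold lower (-1.07 ± 0.17 SE, adjusted p = 0.000964, limma), Polg, and Lig3, the mitochondrial DNA ligase (-0.59 ± 0.14 SE, adjusted p = 0.0101, limma). Twnk, the replicative helicase, had a difference of -0.39 that did not pass (adjusted p = 0.0943, limma). In nucleotide supply 2 of 7 were higher (28.6%, beside 29% of all genes; median 0.18) and 0 lower, with 0 of 7 called on D2PM. These were Rrm2b, the p53-inducible ribonucleotide reductase subunit (0.46, adjusted p = 0.0220, limma), and Mpv17 (0.43, adjusted p = 0.0491, limma), whose old arrays were far apart at 7.94 and 7.38.

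The other transcription genes included 1 called gene of 4 (25%, beside 29% of all genes). This was Mterf3, a negative regulator of transcription initiation, which was lower by -0.53 (adjusted p = 0.0151, limma). Tfb1m, a relative of Tfb2m that methylates ribosomal RNA, was below the filter, at 4.37 and 4.64 on old, 4.78 and 4.78 on D2PM and 4.99, 5.19 and 4.82 on D4PM, and was not tested. All 5 post-mortem arrays were above both old arrays for Tfb1m, a separation seen for 46% of all genes tested. At levels near or below the filter this order is a description only.

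RNA processing, stability and modification held called genes on both sides. The shares called were 40%, 42.9% and 28.6% in that order, beside 29% of all genes tested. In processing, 1 of 5 was higher and 1 lower: Hsd17b10, a subunit of mitochondrial RNase P (0.57 ± 0.13 SE, adjusted p = 0.00664, limma), and Elac2, which cuts the other end of the tRNA (-0.96 ± 0.17 SE, adjusted p = 0.00197, limma). The other RNase P subunits, named after their values were seen, did not pass: Trmt10c (-0.30, adjusted p = 0.102, limma) and Prorp (-0.04, adjusted p = 0.805, limma). In stability and decay, 2 of 14 were higher and 4 lower (median -0.26). The named ones were Fastkd3 (-0.82, adjusted p = 0.00305, limma) and Tbrg4, also known as Fastkd4 (-0.60, adjusted p = 0.00367, limma), both of the FASTK family of mitochondrial RNA-binding proteins, and Ptcd2 (0.61, adjusted p = 0.00447, limma), a pentatricopeptide repeat protein. In modification, 1 of 14 was higher, Osgepl1 (0.38, adjusted p = 0.0276, limma), and 3 lower, among them the ribosomal RNA methyltransferase Mrm3 (-0.71, adjusted p = 0.00368, limma) and the pseudouridine synthase Pus1 (-0.58, adjusted p = 0.0183, limma).

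Nuclear regulators of these genes held the widest difference of the 7 mitochondrial lists. Pprc1, a co-activator of the PGC-1 family, was at 9.29 and 9.50 on the old arrays, at 7.93 and 8.03 on D2PM and at 7.67, 7.22 and 7.63 on D4PM, so that every post-mortem array was more than 1 log2 unit below both old arrays. It was 3.14-fold lower in post-mortem cells (-1.65 ± 0.14 SE, adjusted p = 2.75e-05, limma). Ppargc1a, which encodes PGC-1alpha, of the same family, was at 5.48 and 5.53 on the old arrays, at 6.32 and 6.27 on D2PM and at 5.95, 6.0 and 5.95 on D4PM. Here every post-mortem array was above both old arrays, and D2PM above D4PM, the reverse of Pprc1 against old cells (0.62 ± 0.11 SE, adjusted p = 0.00172, limma). Ppargc1a has 2 probe sets, of which only the brighter is given here, and its old levels were not far above the filter of 5.12. Gabpb1, the activating subunit of GABP, was lower (-0.66 ± 0.12 SE, adjusted p = 0.00279, limma), whereas its DNA-binding partner Gabpa (-0.22, adjusted p = 0.182, limma) and Nrf1 (-0.29, adjusted p = 0.142, limma) did not pass.

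**Figure D4:**
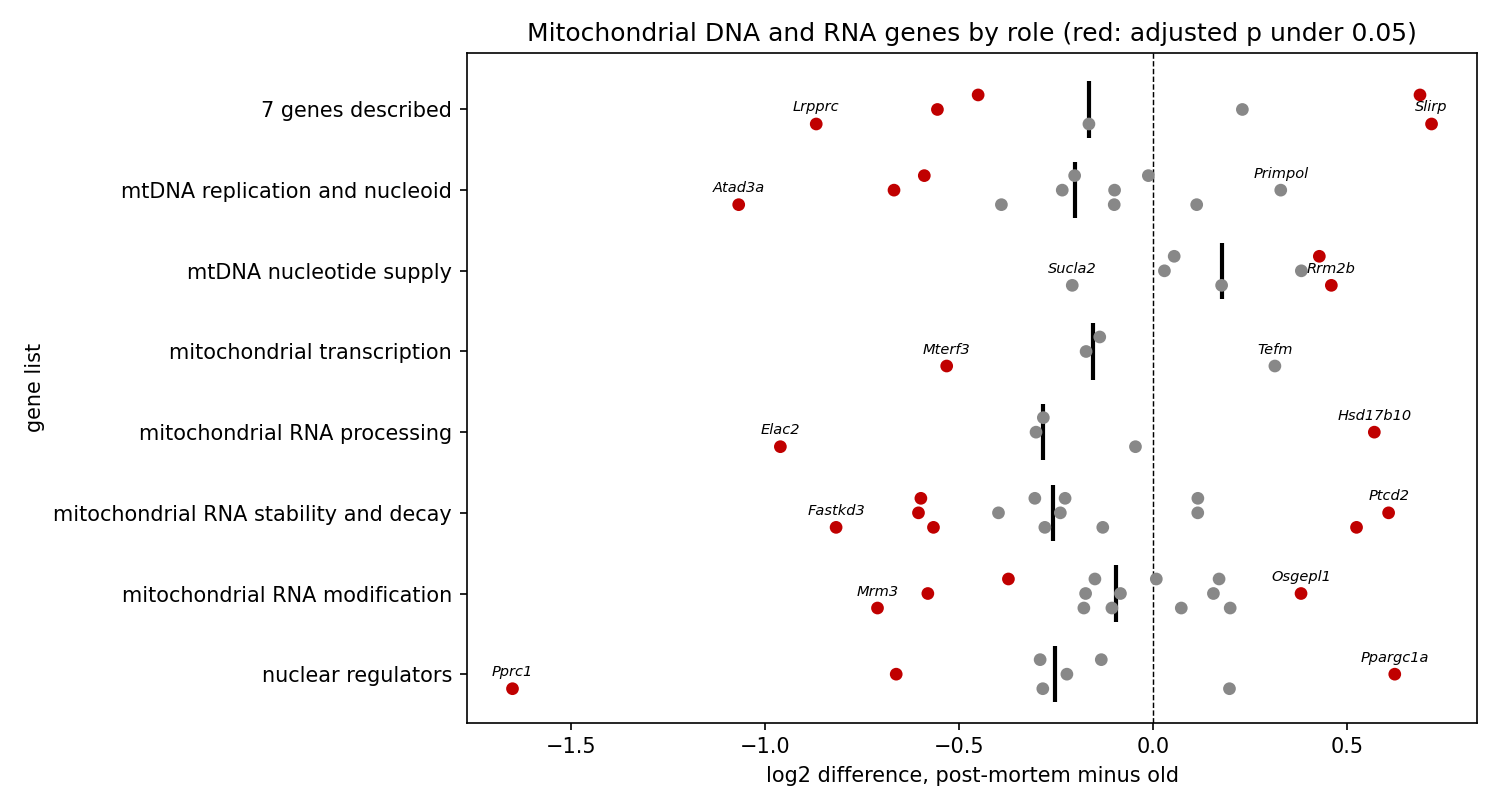
Log2 differences of post-mortem minus old cells (horizontal axis) for the 7 genes and for the 63 tested genes of 7 lists of mitochondrial DNA and RNA genes. Each point is a gene, red where the adjusted p was under 0.05, vertical bars are list medians, and the lowest and highest gene of each list are named. Called genes stand on both sides of 0 in the 7 genes and in the lists of RNA processing, RNA stability and decay, RNA modification and nuclear regulators.

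Patterns of the 7 genes over the 7 arrays were compared by Pearson correlation, as a description, since the arrays fall into groups and share their normalisation. Among the 7 genes, Tfb2m and Lrpprc were the most alike (r = 0.972), and Polrmt and Slirp the most opposed (r = -0.886). The gene most like Lrpprc was Wdr4 (r = 0.999), which encodes a subunit of a tRNA methyltransferase. For Tfb2m it was Tbc1d1 (r = 0.994), for Polrmt Tln1 (r = 0.995), for Slirp Brk1 (r = 0.994), for Ssbp1 the complex II gene Sdhc (r = 0.995), for Tfam Dcaf13 (r = 0.986) and for Polg2 Izumo4 (r = 0.971). Correlations above 0.9 were found with 796 other genes for Lrpprc and 801 for Polrmt, and with fewer for Ssbp1 (58), Polg2 (68) and Tfam (82).

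Satellite cell markers were present on all arrays, with a mean log2 level of 9.49 to 9.58 on old and 9.60 to 9.85 on post-mortem arrays over 11 genes, and 4 of 11 were called higher and 1 lower in post-mortem cells. Markers of some other cells moved with the same comparison. The shares called were 45.5% for satellite cell, 64.7% for endothelial, 83.3% for myofibre and 16.7% for macrophage markers, beside 29% of all genes tested. On D2PM the share of fibroadipogenic markers was 25%, beside 19.4% of all genes tested. Of 17 endothelial markers 11 were higher, with a mean level of 5.82 to 6.43 on old, 6.82 to 6.83 on D2PM and 6.80 to 7.37 on D4PM; of 12 myofibre markers 10 were higher, at 7.44 to 7.82, 8.57 to 8.71 and 8.53 to 8.85. Of 8 fibroadipogenic markers 0 were called in the pooled comparison and 2 were higher on D2PM (Lum and Col1a2, named after their values were seen), of 6 macrophage markers 1 was lower, and of 11 lymphocyte markers 6 had a probe set and 0 were high enough to test. Ptprc, the pan-leukocyte marker, was below the filter of 5.12, with group means of 3.93 to 4.16. Between the days 17 of 17 endothelial markers were above 0 with a median of 0.27, and 8 of 8 fibroadipogenic markers below 0 with a median of -0.35, none of them called. With the mean endothelial level as a covariate, 0 of the 7 genes were called. Of all 9944 genes tested, 158 were called with it and 2887 without. The level was itself higher on every post-mortem array than on both old arrays, so this setting cannot separate it from the group. Under it the post-mortem differences were -0.77 for Lrpprc, 0.75 for Slirp, 0.76 for Polg2, -0.48 for Tfb2m and -0.34 for Polrmt, none of them called. The part of other cell types in these differences was not tested further, and fewer cells of a type and less RNA per cell cannot be told apart in such samples. No mitochondrially encoded gene was found with a probe set annotated to it alone. Mitochondrially encoded transcripts, on which the products of these genes act, were therefore not analysed here.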

How the data were processed

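Per the labels and methods, the authors isolated RNA from sorted cells, amplified it, and deposited log2 expression values for 18675 probe sets made with robust multi-array averaging (RMA), after removing unexpressed and invariant probes; the threshold is not given in the sources used here. Such values are already background-corrected and normalised (array medians 6.11 to 6.19) and carry no detection call. The number of arrays limits the precision. Between 4.02% and 7.76% of probe sets had the same value on both arrays of a pair.

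Genes were named from the platform annotation through Entrez identifiers (14425 of 14480 single-gene probe sets matched RefSeq GRCm38.p6), and 774 probe sets with several genes were left out, as were 3421 with none. The brightest probe set stood for a gene, and 9944 genes whose mean reached 5.12 (25th percentile) entered a limma fit (version 3.58.1, R 4.3.3) of the 3 group means with 4 residual degrees of freedom. P-values were adjusted by Benjamini-Hochberg over all of them, and an adjusted p under 0.05 was called. The spread of each gene was moderated by that of all genes tested, with 7.35 prior degrees of freedom. The fit was tested on simulated data. The 7 genes, the lists and the tests were chosen with earlier results of these data known. Named genes were the 7, up to 3 called genes of each list with the largest moderated statistic, Polg, Twnk, Tfb1m, Nrf1, Gabpa and Ppargc1a, and the gene most correlated with each of the 7. Alternatives were other normalisation, centring, filters, probe set choice, priors, array weights, a replicate block, an endothelial covariate, the methods' Student test, post-mortem arrays alone and leaving out each array.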

Additional observations from a re-analysis of the deposited data

How the results depend on the processing

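The number of the 7 genes called in post-mortem against old cells was 5, and 0 with the endothelial covariate, 2 with the methods' Student test (Polrmt and Lrpprc), and 1 to 5 without each array in turn (1 without old replicate 2, 3 without D2PM replicate 1 or 2). In D2PM against old it was 2, with 0 under the covariate, 0 under the Student test, and 0 to 3 without each array. For D4PM against old it was 5, with 0 under the covariate, 0 under the Student test, and 1 to 5 without each array (1 without old replicate 2, 3 without old replicate 1 or D4PM replicate 2). Between D4PM and D2PM it was 0 in all 18 settings. Under the other settings the counts were within 1.5 times the reported ones. With the replicate block the counts were 5, 2, 5 and 0. Deviations of same-numbered arrays from their group means correlated at -0.08 to 0.05 over the genes tested. In groups of 2 arrays these deviations mirror each other, so the values do not settle whether the numbers pair the arrays. Reversals concerned differences that had not passed: Tfam in post-mortem against old ranged from -0.37 to 0.043 and in D2PM against old from -0.13 to 0.28 without each array, and Polrmt in D4PM against D2PM from -0.10 to 0.034. Ssbp1 in D4PM against old was -0.049 with median centring, -0.20 as the mean of its probe sets, -0.011 with array weights, -0.24 with the covariate, and -0.079 to 0.10 without each array. Over all genes the covariate left 158, 207, 118 and 6 calls in the 4 comparisons, and the Student test 1719, 15, 14 and 0 (692 at an unadjusted p under 0.05). Without each array the counts over all genes were 858 to 2814, 323 to 2054, 911 to 2512 and 0 to 21. Between the days the block gave 54 calls and the post-mortem arrays alone 2. Median centring moved the share of higher genes among post-mortem calls from 49.5% to 39.6%. Apart from the construction of a setting (fewer arrays, or a covariate that itself differed between the groups), the cause of these changes was not tested.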
